A study of Mus musculus with 11 samples.

Results

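The 9 genes described here encode liver enzymes that break down amino acids: the aminotransferases Tat, Got1 and Gpt2, the tyrosine-degrading enzymes Hpd, Hgd and Fah, and the enzymes that open tryptophan, serine and histidine degradation, Tdo2, Sds and Hal. They were chosen by symbol, and each was found in the expression table, which held 36788 genes, of which 12733 passed the filter on low values, all 9 included. The livers came from female mice labelled as WT C57BL/6 and older than 12 weeks (the study's methods speak of a mixed background for its mice) that had all been ovariectomized and fed a high-fat diet. The 5 FSH livers (numbers 1, 2, 3, 4 and 6) came from mice injected daily into the peritoneum with follicle-stimulating hormone at 30 IU/kg, and the 6 saline livers (numbers 1 to 6) from mice given saline. The comparison asks how FSH given in the absence of ovaries changed liver RNA. Libraries held 11410596 to 19909327 reads in the FSH group and 10801891 to 16077442 in the saline group, and values are CPM, the reads of a gene per 1000000 reads of its library.

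Amino acids that are not used for protein lose their nitrogen in the liver, mostly by transfer to 2-oxoglutarate, and their carbon enters glucose synthesis, ketone bodies or the citric acid cycle. Tyrosine is taken apart in a fixed order by the products of Tat, Hpd, Hgd, Gstz1 and Fah, and loss of the later enzymes causes the human disorders alkaptonuria and tyrosinemia. Tat, Tdo2 and Sds are classical liver genes induced by glucocorticoids, and Tat and Sds also by glucagon.

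Among the 9 genes, Hgd rose and Gpt2 fell after FSH, and the other 7 did not pass the test. Hgd was 692.1 ± 16.2 CPM (SD, n = 5) in FSH livers and 570.7 ± 50.6 CPM (SD, n = 6) in saline livers, and Gpt2 was 309.1 ± 22.3 and 437.1 ± 89.1 CPM. A gene was called changed at a Benjamini-Hochberg adjusted p under 0.05 over all genes tested, from limma on log2(CPM + 0.5), a scale that slightly understates changes of low genes. By that rule 2 of the 9 genes were called, 1 higher and 1 lower, while 10.6% of all genes tested were (6.19% higher and 4.41% lower), and none of the 9 also changed more than 2-fold, which 1.83% of all genes did. Hgd was the only one of the 9 whose FSH and saline values did not overlap, against 6.67% of all genes tested (3.95% with FSH higher and 2.72% with FSH lower). The median log2 fold change was -0.20 over the 9 genes, with 4 higher and 5 lower, and 0.02 over all genes tested. Leaving out any one of FSH livers 1, 3 and 4 or saline liver 3 took the count among the 9 genes to 0, and leaving out FSH liver 1 took the count over all genes from 1350 to 804. Every one of the 9 had at least 1824 reads in each library. In RNA of whole liver, fewer cells of a type and less RNA per cell cannot be told apart.

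**Figure D1:**
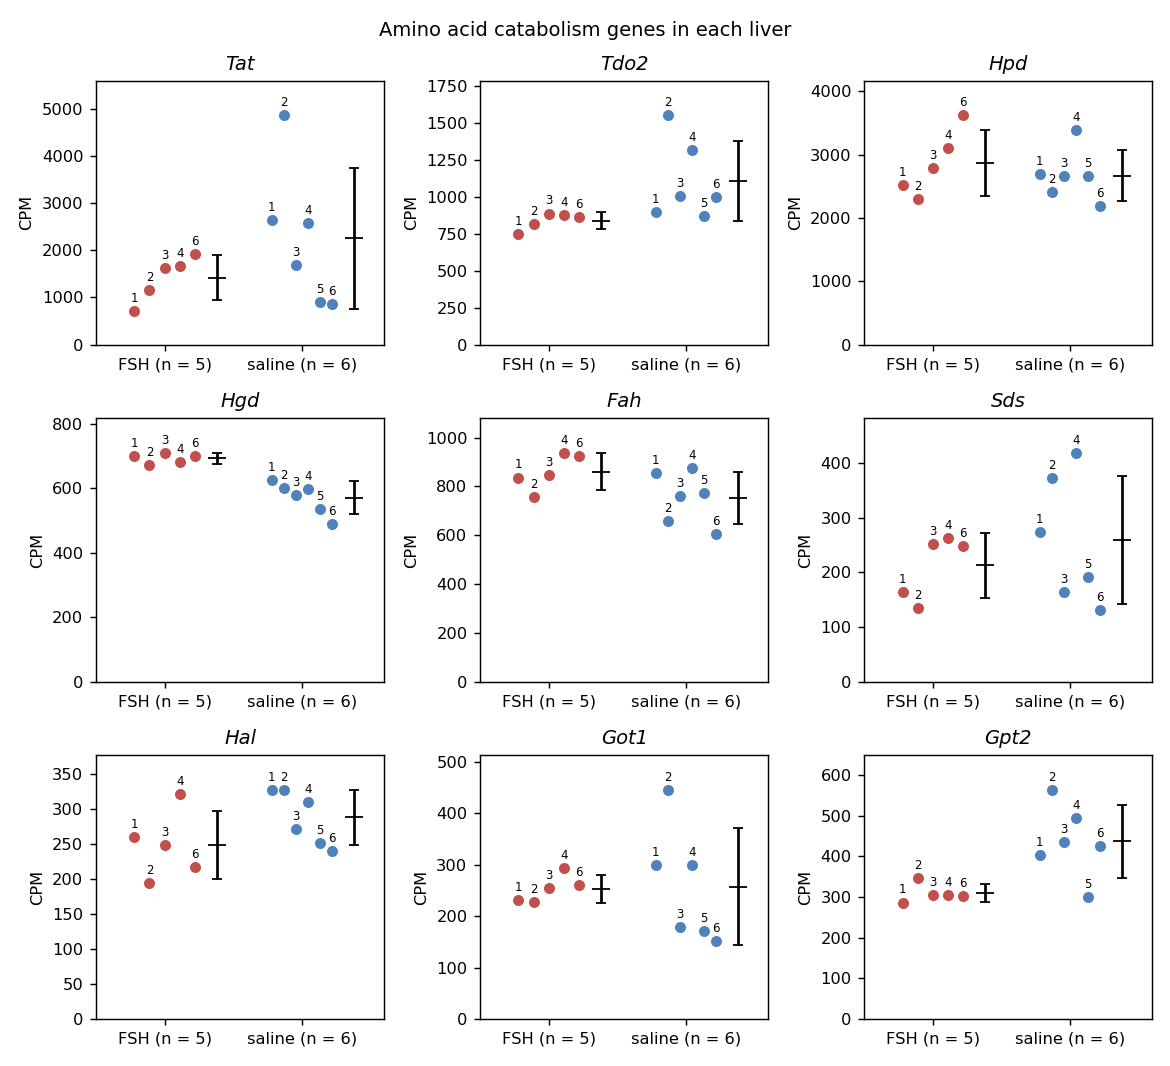
Expression of each of the 9 genes in every liver, in CPM on a linear axis from 0, with 1 panel per gene, 1 point per liver and bars for the group mean and SD (FSH, n = 5; saline, n = 6). Hgd is the panel in which the groups separate, with FSH livers from 671 to 710.3 CPM and saline livers from 487.4 to 625.6 CPM.

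Of the aminotransferases, Tat, the tyrosine aminotransferase that starts tyrosine breakdown, varied most from liver to liver. It stood at 721.4, 1164.4, 1635.1, 1660.1 and 1928.2 CPM in FSH livers 1, 2, 3, 4 and 6, and ran from 851.3 through a median of 2135.2 to 4860.4 CPM in saline livers. Saline livers 1, 2 and 4 lay above every FSH liver and FSH liver 1 below every saline liver, with the other livers intermixed. The log2 fold change of -0.48 ± 0.39 (SE) did not pass the test (limma adjusted p = 0.498), with a 95% interval of -1.32 to 0.36 that spans both directions. Single livers moved it, to -0.21 without saline liver 2, -0.26 without FSH liver 1 and -0.71 without saline liver 6.

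Got1, the cytosolic aspartate aminotransferase of the malate-aspartate shuttle, measured 230.6, 227, 255, 293.3 and 260.1 CPM in the FSH livers, in the same order, and 152 to 446.2 CPM, with a median of 238.8, in saline livers. The FSH livers sat in the middle of the saline range, with 3 saline livers above all of them and 3 below all of them. Its log2 fold change was 0.08 ± 0.23 (SE; limma adjusted p = 0.875), and its sign turned, to -0.05 in both edgeR and DESeq2 on the recovered reads and to between -0.05 and -0.00 when any one of saline livers 3, 5 and 6 was left out.

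The 250 bases upstream of the RefSeq start of Tat and Got1 are shown because these genes moved together across livers, as described further on. They were read from RefSeq on GRCm38.p6, at chr8:109990186-109990435 on the plus strand for Tat and at chr19:43524606-43524855 on the minus strand for Got1, and are written 5′ to 3′ along the transcript. Capitals mark CCAAT or its reverse complement ATTGG.
Tat: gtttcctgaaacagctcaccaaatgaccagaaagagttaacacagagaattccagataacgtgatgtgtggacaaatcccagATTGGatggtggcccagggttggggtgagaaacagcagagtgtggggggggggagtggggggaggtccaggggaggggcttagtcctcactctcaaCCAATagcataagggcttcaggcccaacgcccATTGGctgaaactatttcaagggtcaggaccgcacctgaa
Got1: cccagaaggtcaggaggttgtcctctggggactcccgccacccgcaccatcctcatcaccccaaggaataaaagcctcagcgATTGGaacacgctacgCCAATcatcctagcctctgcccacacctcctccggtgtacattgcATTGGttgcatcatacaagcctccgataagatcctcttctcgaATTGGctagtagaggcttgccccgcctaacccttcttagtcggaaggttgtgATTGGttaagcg
Got1 held 5 such matches and Tat held 3, and 0.233% of the 27025 mouse promoters of the same length held at least 5 and 2.98% at least 3. A single match is common, at 34.5% of promoters, and was found in 5 of the 8 genes that had a promoter in the table. CCAAT was 1 of 10 motifs searched, and no other of them matched in the Tat or Got1 window. Sds, which moved with these genes, had no promoter available. A match of letters is a description and does not show that a factor binds there. The part of these matches in the shared variation was not tested.

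Gpt2, the mitochondrial alanine aminotransferase that interconverts alanine and pyruvate, fell. FSH livers 1, 2, 3, 4 and 6 had 286.6, 346.4, 305.3, 305.8 and 301.5 CPM, and saline livers had 299.3 to 564.4 CPM with a median of 431.1. Of the saline livers, 5 lay above every FSH liver, and saline liver 5 alone lay within the FSH range. The log2 fold change was -0.48 ± 0.13 (SE; 95% interval -0.75 to -0.20), or 0.72-fold (0.59 to 0.87), with a limma adjusted p of 0.0298. An exact permutation test over the 462 splits of the livers, two-sided and not adjusted for the number of genes, gave p = 0.0216. The call was lost without a filter on low values (limma adjusted p = 0.0566) and when any one of FSH livers 1, 3 and 4 or saline livers 2, 3 and 4 was left out (limma adjusted p up to 0.0819), while the log2 fold change stayed between -0.58 and -0.40.

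The paralogs of these enzymes gave values with little difference between groups. Gpt, the cytosolic alanine aminotransferase, was 481 ± 53.6 CPM in FSH and 461.8 ± 81.8 CPM in saline livers, a log2 fold change of 0.07 (95% interval -0.19 to 0.33). Got2, the mitochondrial aspartate aminotransferase, was 532.4 ± 48.8 and 510.3 ± 32.3 CPM, a log2 fold change of 0.06 (-0.12 to 0.24). The difference in response between Gpt2 and Gpt was not tested.

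The upstream bases of the called genes Hgd and Gpt2 are given next, at chr16:37579903-37580152 and chr8:85492326-85492575, both on the plus strand of GRCm38.p6 from RefSeq. Capitals mark CCAAT or ATTGG and, in Hgd, a match to the C/EBP motif TTGCNNAA on the minus strand, which 9.55% of promoters held on either strand.
Hgd: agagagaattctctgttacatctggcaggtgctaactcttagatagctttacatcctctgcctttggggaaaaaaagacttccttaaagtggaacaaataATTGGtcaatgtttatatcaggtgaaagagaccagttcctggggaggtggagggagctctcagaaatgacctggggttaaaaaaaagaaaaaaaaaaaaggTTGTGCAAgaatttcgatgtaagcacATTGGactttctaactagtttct
Gpt2: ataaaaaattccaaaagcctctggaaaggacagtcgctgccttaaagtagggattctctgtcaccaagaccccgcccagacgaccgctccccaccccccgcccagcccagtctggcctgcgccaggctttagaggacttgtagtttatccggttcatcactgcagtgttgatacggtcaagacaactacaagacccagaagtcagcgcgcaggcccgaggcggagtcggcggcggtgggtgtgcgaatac
The C/EBP match in Hgd starts 49 bases before the RefSeq start. Gpt2 held none of the 10 motifs searched, which were the CCAAT box and the C/EBP motif above, the steroid receptor site AGAACA (16.2% of promoters), the CREB site TGACG (17.9%), the HNF1 site GTTAAT (6.52%), the HNF4 site CAAAGTC (3.8%), the forkhead site GTAAACA (3.09%), the E-box CACGTG (6.05%) and the D-box TTATGNAA (3.23%) on both strands, and the TATA box TATAAA (8.12%) on the transcript strand. No match says only that these letters are not in this window.

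Downstream of Tat, tyrosine carbon passes through Hpd, Hgd and Fah, and their means were all somewhat higher in FSH livers, with Hgd passing the test. Hgd, the homogentisate dioxygenase that opens the aromatic ring, had 700.4, 671, 710.3, 679.7 and 699.3 CPM in FSH livers 1, 2, 3, 4 and 6. In saline livers it had 487.4 to 625.6 CPM with a median of 587.2, so that all 5 FSH livers lay above all 6 saline livers. The log2 fold change was 0.28 ± 0.08 (SE; 95% interval 0.11 to 0.45), a rise of 1.22-fold (1.08 to 1.37; limma adjusted p = 0.0357). The exact permutation test, two-sided and unadjusted, gave p = 0.00433, the smallest p that 5 against 6 livers allow. The size was stable at 0.24 to 0.31 when single livers were left out, but the call held in 10 of 23 alternatives. It was lost, for example, with median-of-ratios scaling (limma adjusted p = 0.0879) and in edgeR on the recovered reads (adjusted p = 0.0917), and when any one of FSH livers 1 to 4 or saline livers 3, 5 and 6 was left out (limma adjusted p up to 0.0901).

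Hpd, the dioxygenase that makes homogentisate from 4-hydroxyphenylpyruvate, stood at 2515.0, 2293.2, 2789.4, 3111.5 and 3621.0 CPM in the FSH livers, in the same order, and at 2189.1 to 3392.0 CPM, with a median of 2664.2, in saline livers. The ranges overlapped almost fully, with FSH liver 6 above and saline liver 6 below all livers of the other group. For Hpd the log2 fold change was 0.10 ± 0.13 (SE; limma adjusted p = 0.709), and it ran from 0.01 without FSH liver 6 to 0.17 without FSH liver 2 or saline liver 4.

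Fah, the hydrolase that ends the pathway by releasing fumarate and acetoacetate, had 836.6, 755, 847.3, 938.8 and 925.9 CPM in the FSH livers and 604.9 to 875 CPM, with a median of 766.2, in saline livers. FSH livers 4 and 6 lay above every saline liver, and saline livers 2 and 6 below every FSH liver. The log2 fold change of 0.20 ± 0.11 (SE) did not pass the test (limma adjusted p = 0.266).

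Tdo2, the heme dioxygenase that commits tryptophan to the kynurenine pathway, was lower on average in FSH livers but missed the threshold. Its values were 749, 812.9, 885.8, 876.2 and 863.2 CPM in the FSH livers and 867.3 to 1548.5 CPM, with a median of 1000.8, in saline livers. The groups overlapped through saline liver 5 alone, which lay below FSH livers 3 and 4. The log2 fold change was -0.37 ± 0.14 (SE; 95% interval -0.66 to -0.07; limma adjusted p = 0.106). The exact permutation p, two-sided and unadjusted, was 0.013. Of the alternatives run, DESeq2 on the recovered reads alone called it, at -0.43 and an adjusted p of 0.0336. Ido2, a liver enzyme that carries out the same step, was 73.84 ± 5.19 CPM in FSH and 67.15 ± 4.76 CPM in saline livers, a log2 fold change of 0.14.

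Sds, the serine dehydratase that yields pyruvate and ammonia, had 164.7, 134.5, 252.3, 263.2 and 248.5 CPM in the FSH livers and 131.2 to 419 CPM, with a median of 232.6, in saline livers. The FSH values lay inside the saline range, and the log2 fold change was -0.20 ± 0.28 (SE; limma adjusted p = 0.709). It ran from -0.04 without saline liver 4 and -0.05 without FSH liver 2 to -0.37 without saline liver 6. Its paralog Sdsl was far lower, at 13.23 ± 2.51 and 14.41 ± 3.33 CPM.

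Hal, the histidine ammonia-lyase that makes urocanate, had 260.4, 193.7, 248.9, 321 and 217.1 CPM in the FSH livers and 240.1 to 327.8 CPM, with a median of 291, in saline livers. FSH livers 2 and 6 lay below every saline liver and saline livers 1 and 2 above every FSH liver. Its log2 fold change was -0.22 ± 0.13 (SE; limma adjusted p = 0.299), and ran from -0.14 without FSH liver 2 to -0.32 without FSH liver 4.

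**Figure D2:**
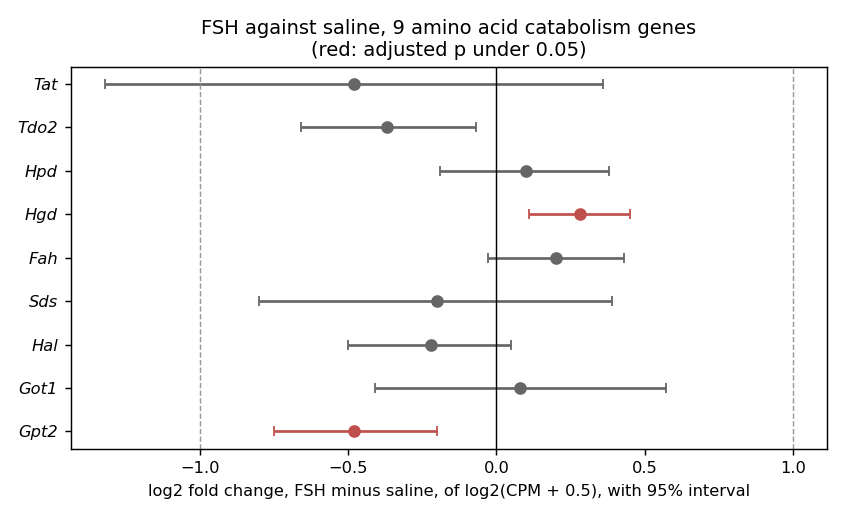
Log2 fold change of each of the 9 genes, FSH minus saline on log2(CPM + 0.5), with its 95% interval from limma (5 FSH and 6 saline livers). The interval of Hgd, 0.11 to 0.45, and those of Gpt2, -0.75 to -0.20, and Tdo2, -0.66 to -0.07, do not include 0, and the widest is that of Tat.

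The saline livers spread more than the FSH livers in most of these genes. The SD of log2(CPM + 0.5) was larger in saline livers in 7 of the 9 genes (77.8%), while it was larger in 58.1% of all genes tested, and Hpd and Hal were the exceptions. For Got1 it was 0.61 in saline and 0.15 in FSH livers, and for Tat 0.97 and 0.57. The difference in spread itself was not tested.

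Within groups, Tat, Got1 and Sds varied together from liver to liver. After each gene's group mean was taken away, Pearson's r over the 11 livers was 0.90 between Tat and Got1, 0.82 between Tat and Sds and 0.86 between Sds and Got1, and it was 0.83, 0.76 and 0.84 without the 2 livers farthest out on the first gene. Of 12732 genes, 12 had a higher r with Tat than Got1 did. Of the 36 pairs among the 9 genes, Hpd and Fah had r = 0.85 and Tdo2 and Gpt2 had 0.83. Without the 2 livers farthest out on the first gene, r was 0.88 and 0.65. In saline livers alone it was 0.887 and 0.882, and in FSH livers alone 0.91 and 0.157. Tdo2 and Hgd also varied with Tat, at 0.75 and 0.74, and Hgd with Got1, at 0.75. For Hgd this was seen in saline livers only. Its r with Tat was 0.853 in saline and 0.0548 in FSH livers, and with Got1 0.782 and 0.00723. Between Tdo2 and Tat it was 0.736 in saline and 0.958 in FSH livers. Without the 2 livers farthest out on Tat, r with Tat was 0.71 for Tdo2 and 0.49 for Hgd. Saline liver 2 was among the 2 highest livers in 6 of the 9 genes, and saline liver 6 among the 2 lowest in 6. These correlations are descriptions over livers whose genes share a library and its depth.

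**Figure D3:**
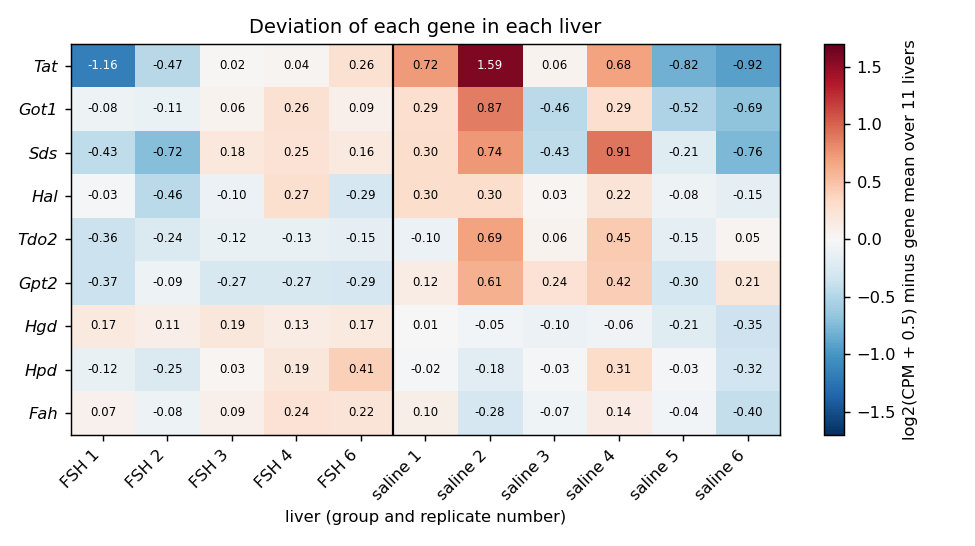
Heat map of log2(CPM + 0.5) minus the gene's mean over the 11 livers, with genes as rows and livers as columns (5 FSH at the left, 6 saline at the right), red above and blue below the mean. Tat spans -1.16 in FSH liver 1 to 1.59 in saline liver 2, with Got1 and Sds shifted the same way in saline liver 2, while Hgd is above its mean in all 5 FSH livers.

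Some of the 20 listed regulators varied with Tat from liver to liver and others against it or not at all, and those given here were, apart from Klf15 and Nr3c1, chosen after their values were seen. Within groups, r with Tat was 0.95 for Cebpd, 0.92 for Klf15, a glucocorticoid-induced factor of amino acid catabolism, 0.89 for Cebpb, 0.84 for Per1 and 0.77 for Foxo1, but 0.15 for Klf9 and -0.87 for Cebpa. For Nr3c1, the glucocorticoid receptor, r was -0.66 and went to -0.35 without the 2 farthest livers. Between groups, Klf15 was 129.5 ± 45.8 CPM in FSH and 182 ± 62.1 CPM in saline livers (limma adjusted p = 0.206), and Nr3c1 was 79.39 ± 7.03 and 68.47 ± 7.62 CPM (adjusted p = 0.166).

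Of the 20 regulators listed, 2 rose and 5 fell (35%, beside 10.6% of all genes tested). Serpina6, which encodes the corticosteroid-binding globulin of plasma, rose (log2 fold change 0.92), and so did Dbp, a clock output factor, from 3.404 to 4.946 CPM in saline livers to 42.59 to 121 CPM in FSH livers. Those that fell were the clock genes Arntl (-2.33) and Nfil3 (-1.68), the insulin receptor substrate Irs2 (-1.45), Klf9 (-1.03) and the hepatocyte factor Hnf4a (-0.44, limma adjusted p = 0.0369). The hour of tissue collection is not given in the sources used here, and the part of these clock genes in the differences of Hgd and Gpt2 was not tested.

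Compared per kilobase of exon, so that genes of unequal length can be ranked, mean levels over all livers ran from Hpd at 1296 CPM per kb through Tat at 781, Fah at 362, Tdo2 at 253, Hgd at 239, Sds at 140, Got1 at 101 and Gpt2 at 67.1 to Hal at 48.6. The order of Tdo2 and Hgd turned between groups, since Tdo2 exceeded Hgd in 5 of 6 saline livers and in 0 of 5 FSH livers. Neighbours Sds and Got1 overlapped across livers, at 126 ± 34.7 and 99.7 ± 10.5 CPM per kb in FSH livers and 153 ± 69 and 101 ± 44.6 in saline livers, although within a liver Sds was the higher in 6 of 6 saline and 4 of 5 FSH livers.

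**Figure D4:**
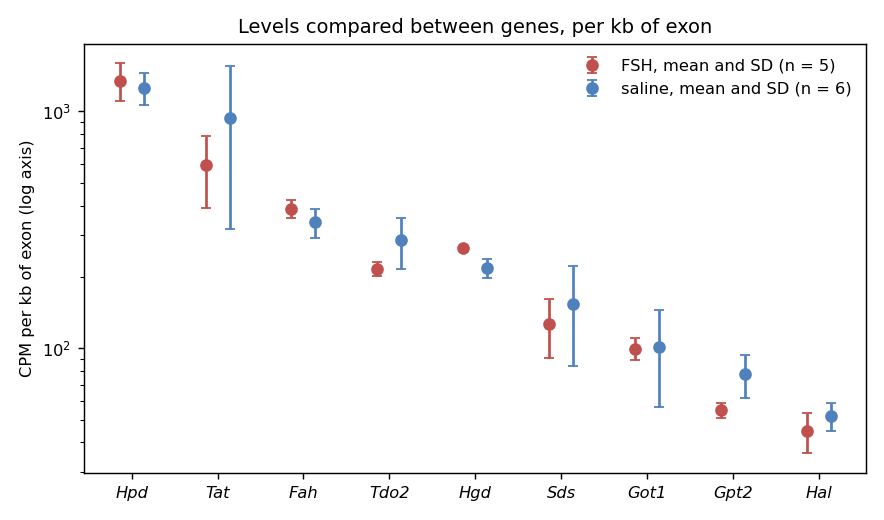
Level of each of the 9 genes in CPM per kilobase of exon, on a log axis, with group means, bars for the SD and colour for the group (FSH, n = 5; saline, n = 6). Hpd is highest, at a mean over all livers of 1296, and Hal lowest, at 48.6. For Hgd the FSH mean, 265, lies above the saline mean, 218.

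Around these genes, 8 further lists of amino acid enzymes held 85 genes that could be tested, of which 12 rose and 4 fell (18.8%, beside 10.6% of all genes tested), and none changed more than 2-fold. The list of phenylalanine and tyrosine enzymes had 5 of 11 genes called, all higher. Qdpr, which regenerates the cofactor tetrahydrobiopterin, rose from 463.9 ± 51.6 to 799.3 ± 131 CPM (log2 fold change 0.78, limma adjusted p = 0.000521). Gch1, the first enzyme of tetrahydrobiopterin synthesis, rose from 137 ± 16 to 191.6 ± 12.3 CPM. Gstz1, the isomerase between Hgd and Fah, rose from 691.4 ± 26 to 812.1 ± 24.3 CPM (limma adjusted p = 0.0442), although it was called in only 7 of 23 alternatives. Dnajc12, a co-chaperone of the heat shock protein family, was also called (log2 fold change 0.54) and is named after its values were seen.

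In the tryptophan and kynurenine list, 1 of 10 tested genes rose and 1 fell. Haao, which makes the precursor of quinolinate, rose from 546.4 ± 40.3 to 725.6 ± 88 CPM (log2 fold change 0.40, limma adjusted p = 0.0137), and Kynu, the kynureninase upstream of it, fell from 115.7 ± 10.4 to 89.88 ± 5.4 CPM (-0.36, adjusted p = 0.0113).

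The glutamate, glutamine and proline list had 3 of 9 tested genes higher and 1 lower. Gls2, the liver glutaminase, rose from 246.7 ± 53.6 to 405.7 ± 13.6 CPM (log2 fold change 0.74, limma adjusted p = 0.00123), Prodh, the proline dehydrogenase, by 0.72 on the log2 scale, and Hoga1, of hydroxyproline breakdown, by 0.27. Glud1, the glutamate dehydrogenase that frees ammonia from the glutamate made by aminotransferases, fell from 1007.8 ± 127 to 764.9 ± 28 CPM (-0.39, adjusted p = 0.0156).

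The other lists held few calls. Of the other aminotransferases, 1 of 14 was called, Gfpt1 of the hexosamine pathway, at -0.61. Hnmt, which methylates histamine, was the 1 gene of 7 called in the histidine list (0.55), and in the serine, threonine and glycine list, with 8 tested, Gcat of threonine breakdown rose (0.34) and Grhpr of glyoxylate metabolism fell (-0.38). The branched-chain list had 1 of 19 called, Auh of leucine breakdown (0.31), with 17 of its 19 genes at a positive log2 fold change, beside 6873 of the 12733 genes tested, and the lysine list had 0 of 7 called, its smallest p values belonging to Crym (0.28, limma adjusted p = 0.332) and Dhtkd1 (0.21, adjusted p = 0.339). Of the calls in these lists, Gcat held in 10 of 23 alternatives, Gfpt1 and Hoga1 in 14 each, and Grhpr was lost only without FSH liver 1, FSH liver 3 or saline liver 3. Hnf4a held in 14 of 23, and Auh was lost without FSH liver 1 and with the replicate block.

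**Figure D5:**
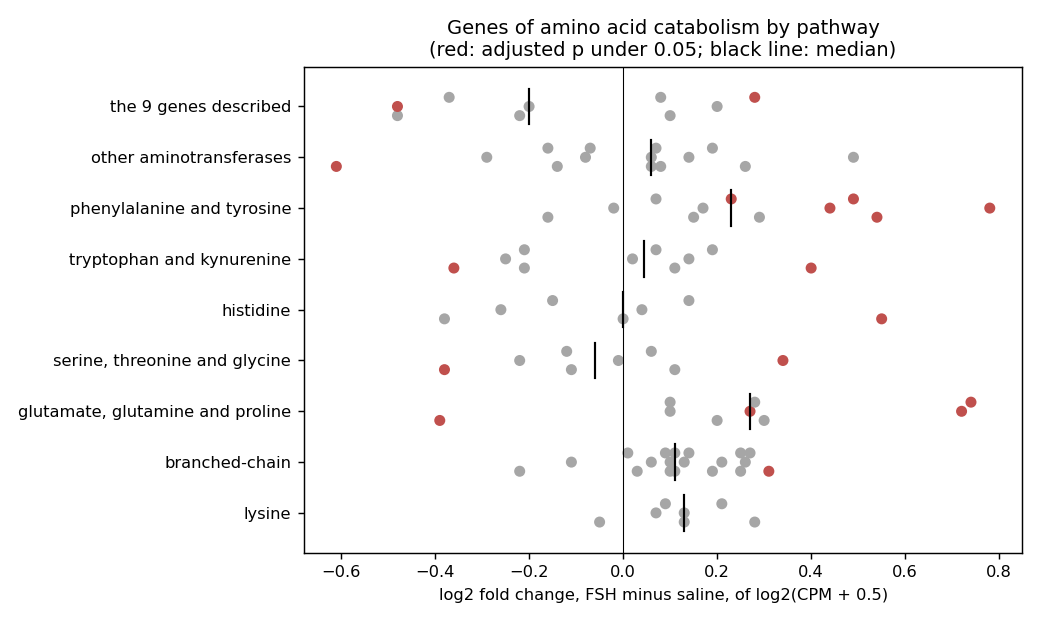
Log2 fold change of every tested gene of the 9 described and of 8 lists of amino acid enzymes, FSH minus saline, 1 point per gene, red where the limma adjusted p was under 0.05, with a black line at the list median. The medians of the phenylalanine and tyrosine list, 0.23, and of the glutamate, glutamine and proline list, 0.27, lie furthest to the right, and that of the 9 genes lies at -0.20.

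Across all genes tested, the 3 whose values over the 11 livers were most like those of Gpt2, the gene of the 9 with the smallest limma p, were Tns1 (Pearson's r = 0.961), Ivns1abp (0.948) and Shld2 (0.947). Group means were left in here, so the choice itself favours genes lower in FSH livers, and their log2 fold changes of -0.57, -0.47 and -0.69 are a description.

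The labelled tissue was checked against marker lists. The 10 hepatocyte markers summed to 118936.7 to 140712.2 CPM in FSH and 113017.0 to 146955.2 CPM in saline livers, and 1 of them, Hnf4a, was called, as lower. All 8 Kupffer cell markers had negative log2 fold changes, with none called and a median log2 fold change of -0.47 (summed level 142 to 376 against 246.4 to 438.4 CPM), and all 8 stellate cell markers likewise, with none called and a median of -0.27 (213.1 to 311.6 against 246.7 to 351.8 CPM). The part of these cells in the differences of Hgd and Gpt2 was not tested. Of 7 endothelial markers Lyve1 was called lower, and of 5 cholangiocyte markers tested Krt7 was called higher, while no leukocyte or erythroid marker was called, and 7 of 8 pancreatic acinar and 4 of 5 adipocyte markers had no more than 3 reads in any library.

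In the annotation of GRCm38 (GENCODE M21), Hpd (chr5:123171807-123182727) overlaps the gene Gm26745 on its own strand and Psmd9 on the other, Hgd (chr16:37580153-37632020) overlaps Gm46559 on the other strand, and Sds (chr5:120476526-120483932) overlaps Gm15690 and Plbd2 on the other strand. Whether reads were counted by strand is not given in the sources used here, so reads of these overlapping stretches may be assigned to either gene. Gpt2 lies at chr8:85492576-85527560, Tat at chr8:109990437-109999803, Got1 at chr19:43499752-43524605, Tdo2 at chr3:81957090-81976202, Fah at chr7:84585159-84606722 and Hal at chr10:93488768-93519304.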

How the data were processed

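Total RNA of 11 livers, digested with papain per the labels, was sequenced, 1 library per liver. The authors deposited 1 table of gene values as CPM, and the submitters' processing notes name FastQC 0.11.2, Trim Galore 0.3.3, cutadapt, STAR, RSEM and the build mm10. Which of these tools counted the reads, the annotation release and the use of strand are not given in the sources used here. Each CPM value was a whole multiple of the worth of 1 read (tolerance 0.01 reads), so reads were recovered for alternatives, although RSEM estimates need not be whole. Symbols matched 35555 of 36788 identifiers in GENCODE M21, which may not be the release used for counting.

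The test took in genes whose mean reached 0.5 CPM and was run with limma 3.58.1 (R 4.3.3; log2(CPM + 0.5), empirical Bayes with an intensity trend), FSH against saline. Single values were also compared by exact permutation over livers (scipy 1.17.1), without adjustment for the number of genes. Of the 9 genes, those other than Hgd, Gpt2 and Tdo2 had permutation p values from 0.104 for Fah to 0.996 for Got1. The labels number the livers without saying how they relate, so p-values measure the spread between these samples. No pair of libraries within a group was near identical (lowest mean chi-square 11.4).

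The 9 genes and all lists were chosen with earlier results of these data known. Named beside them were, per list, up to 4 genes with an adjusted p under 0.05, otherwise the 2 with the smallest p, set paralogs and regulators, and the 3 genes most like the member with the smallest p. Alternatives, 23 in all, changed the pseudocount, filter, scaling, trend, weights, replicate block, test (voom, edgeR 4.0.16, DESeq2 1.42.0 on recovered reads) or left out 1 liver each. The scripts were tested on simulated data. Rhbg was not analysed here. A called gene of the phenylalanine and tyrosine list is not reported here.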

Additional observations from a re-analysis of the deposited data

Results flagged for a closer look

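A liver was singled out where its gap to the nearest other liver of its group, divided by the group's range, passed Dixon's 95% critical value (0.71 for 5 livers and 0.625 for 6). Of 82 groups of values tested, 6 passed, and chance alone gives about 1 in 20. None was of the 9 genes. Gls2 was 429.1 CPM in FSH liver 1, next to 404.1 in the nearest other, and 350.5 CPM in saline liver 2, next to 254.4. Hoga1 was 169.8 CPM in FSH liver 4, next to 146.7. Irs2 was 8.998 CPM in FSH liver 2, next to 3.488. In FSH liver 6, Hnf4a was 445.2 CPM, next to 347.3, and Nr3c1 was 67.13 CPM, next to 79.76.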

How the results depend on the processing

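Of the 9 genes, 2 were called in the reported fit. The count was 0 with no filter on low values, 1 with median-of-ratios scaling, 1 with upper-quartile scaling, 1 without the intensity trend, 1 in edgeR on the recovered reads and 0 where a change over 2-fold was also asked for, and it ranged from 0 to 2 when single livers were left out. DESeq2 called 3. Over all genes, 1350 were called, 233 with the 2-fold threshold as well, and 804 to 1659 when single livers were left out, the lowest without FSH liver 1. Listed genes called numbered 25, and 17 to 33 over the alternatives. The sign of Got1 turned from 0.08 to -0.05 in edgeR, -0.05 in DESeq2 and -0.02 with the replicate block, and ranged from -0.05 to 0.26 when single livers were left out. The cause was not tested. The median log2 fold change of all genes was 0.02 as reported, -0.00 with median-of-ratios and 0.01 with upper-quartile scaling.

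For livers with the same number in both groups, correlations of their deviations were 0.0651, 0.356, 0.0193, 0.137 and -0.0662 (numbers 1, 2, 3, 4 and 6). For FSH liver 2 no other saline liver correlated more. For each other FSH liver a saline liver of another number did, at 0.106 to 0.238. Whether the numbers mark pairs was not tested. With the replicate block, 1 of the 9 genes was called, Gpt2, and 1214 of all genes; Hgd had an adjusted p of 0.0898.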

Other observations

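Among 15 amino acid carriers, 2 were called (13.3%, beside 10.6% of all genes tested), both higher in FSH livers. Slc38a3, the glutamine and histidine carrier, rose from 593.4 ± 63.6 CPM (SD, n = 6) to 1546.9 ± 371 CPM (SD, n = 5), or 1.36 on the log2 scale (limma adjusted p = 2.15e-05). Slc43a1, a carrier of large neutral amino acids, rose from 4.099 ± 1.05 to 8.403 ± 1.68 CPM, or 0.96 on the log2 scale (adjusted p = 0.00189).

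Of 11 periportal markers, which include Sds and Hal of the 9 genes, Aldh1b1 and Gls2 rose and Cyp2f2 and Cdh1 fell (36.4% called, beside 10.6% of all genes tested). Cyp2f2 went from 657.9 ± 30.9 to 344 ± 46.1 CPM (log2 fold change -0.94) and Cdh1 from 24.06 ± 3.31 to 12.73 ± 6.91 CPM (-1.05). Of 9 pericentral markers, Lect2 alone was called, from 146.1 ± 25 to 190.9 ± 13.7 CPM (0.40).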
